A study of Mus musculus with 12 samples.

Results

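Triacylglycerol, the fat stored in adipocytes, is built by a chain of enzymes from glycerol-3-phosphate to the final acylation of diacylglycerol, and 7 genes of that chain were examined: Gpam, Agpat2, Lpin1, Lpin2, Lpin3, Dgat1 and Dgat2. They were chosen by name, with earlier results of these data known. Each was read from the transcript cluster that the array annotation gives for its symbol. They are 7 of the 19480 named genes among 22104 clusters, and each was represented by 1 cluster. The cells were 3T3-L1, a mouse preadipocyte line that is turned into lipid-filled adipocytes by a hormone cocktail. RNA was taken at day 8 of differentiation, and each treatment ran from day 0 in 3 cultures, at passage 6, 7 and 8. The control received ethanol and DMSO, and whether the other groups did too is not stated in the labels. Alpha-linolenic acid (ALA), the plant omega-3 fatty acid, was given to the ALA group at 50 µM, in a medium that held 2% albumin freed of fatty acids. The inhibitor group was given 5 µM of an inhibitor of delta-6-desaturase, which begins the conversion of ALA to longer fatty acids, and the last group received ALA and the inhibitor together. Cells of every group were grown in 10% serum and, after the cocktail, with insulin at 5 µg/ml. Albumin is named in the labels for the ALA medium alone, and whether the other media held it is not given in the sources. Each comparison of ALA with no ALA may therefore also be one of albumin with none.

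In this pathway a fatty acid is first attached to glycerol-3-phosphate to give lysophosphatidic acid, a second acylation gives phosphatidic acid, removal of the phosphate gives diacylglycerol, and a last acylation gives triacylglycerol. Phosphatidic acid and diacylglycerol are also precursors of membrane phospholipids, so the lipin step lies at a branch point. Most of the enzymes are induced as preadipocytes differentiate, and loss of Agpat2 or of Lpin1 is known to cause lipodystrophy in mice.

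Promoter sequences are shown for Agpat2 and Lpin1, whose passage 8 arrays lay apart from all others, and for Lpin3, which gave the widest treatment differences. Those of Lpin2, which also differed between passages 8 and 6, are not shown, and no window was listed for Dgat2. Each window holds the 250 bases before an annotated start in RefSeq (GRCm38.p6), written 5′ to 3′ along the gene, and capitals mark the GC box GGGCGG, the letters bound by Sp-family factors, on either strand.
Agpat2 (chr2:26604418-26604667, minus strand): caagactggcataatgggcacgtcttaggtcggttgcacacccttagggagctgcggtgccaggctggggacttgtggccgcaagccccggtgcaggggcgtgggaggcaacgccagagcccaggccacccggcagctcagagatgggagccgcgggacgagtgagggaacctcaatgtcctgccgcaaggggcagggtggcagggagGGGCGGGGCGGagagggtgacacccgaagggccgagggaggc
Lpin1 (chr12:16610967-16611216, minus strand): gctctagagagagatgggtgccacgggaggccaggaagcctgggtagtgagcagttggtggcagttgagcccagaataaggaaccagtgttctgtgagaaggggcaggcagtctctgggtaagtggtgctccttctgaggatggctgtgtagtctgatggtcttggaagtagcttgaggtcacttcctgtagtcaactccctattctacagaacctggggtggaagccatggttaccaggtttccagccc
Lpin3 (chr2:160880420-160880669, plus strand): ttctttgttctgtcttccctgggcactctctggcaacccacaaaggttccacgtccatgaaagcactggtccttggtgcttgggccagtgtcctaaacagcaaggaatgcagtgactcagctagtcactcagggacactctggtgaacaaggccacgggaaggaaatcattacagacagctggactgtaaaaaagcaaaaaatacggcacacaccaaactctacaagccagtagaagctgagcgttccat
Lpin3 (chr2:160887918-160888167, plus strand): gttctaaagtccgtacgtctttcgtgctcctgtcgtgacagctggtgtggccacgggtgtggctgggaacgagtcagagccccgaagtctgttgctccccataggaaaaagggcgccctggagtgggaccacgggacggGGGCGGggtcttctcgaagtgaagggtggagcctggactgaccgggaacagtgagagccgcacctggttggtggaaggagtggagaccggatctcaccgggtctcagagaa
The Agpat2 window held 2 overlapping GC boxes, which begin 42 and 37 bases before the start. The window of the downstream Lpin3 start held 1, which begins 111 bases before it, while the windows of Lpin1 and of the upstream Lpin3 start held none. Windows were listed for 5 of the 7 genes, 9 in all. Among these, 5 of 9 held a GC box against 32.7% of all 32851 windows, and 2 of 9 held the CCAAT box CCAAT against 33.8%. The E-box CACGTG, letters bound by basic helix-loop-helix factors, was in 1 of 9 windows against 6.02% of all. The sterol regulatory element TCACNCCAC (1.05% of all windows) and the PPAR direct repeat, a pair of AGGTCA with 1 base between (0.0335%), were in 0 of 9. Both strands were searched for every motif, and a match or its absence describes only these letters in these windows.

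Across the 12 arrays the median log2 signal lay between 6.14 and 6.27. Of the adipocyte markers 10 of 10 were above the median of all clusters, against 0 of 3 macrophage markers and 0 of 4 endothelial markers. Of the markers of preadipocytes and fibroblasts, 4 of 5 were also above that median, and 1 of 4 for skeletal muscle. Lying above the median thus does not tell adipocytes from preadipocytes. One array stood apart: ALA at passage 7 correlated with the other arrays at 0.976 to 0.987 over all clusters, against 0.989 to 0.994 among the other 11. It held the highest or lowest of the 12 values in 44.1% of all clusters, and in 4 of the 7 genes examined, being lowest for Gpam, Agpat2 and Dgat1 and highest for Dgat2. In bulk RNA of this kind, fewer cells of a type and less RNA per cell cannot be told apart.

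Neither ALA nor the inhibitor gave a difference that passed the test in any of the 7 genes. In limma's test with Benjamini-Hochberg adjustment over all clusters, 0 of 7 were called at adjusted p under 0.05 in ALA against control, inhibitor against control, both agents against ALA, both against the inhibitor, and both against control, where 0% of all clusters were called. The same held for the interaction of ALA and inhibitor and for each agent averaged over both states of the other (0 of 7, and 0% of all clusters). At an unadjusted p under 0.05, 753 clusters (3.41%) differed in ALA against control, 1607 (7.27%) in both agents against ALA, 786 (3.56%) in both against the inhibitor, 946 (4.28%) in both against control, 755 (3.42%) in the interaction and 781 (3.53%) for averaged ALA, and 0 of the 7 genes were among any of them. In inhibitor against control 1 of the 7 genes and 955 clusters (4.32%) had such a p, and for the averaged inhibitor 1 gene and 1936 clusters (8.76%). Lpin3 was that gene in both. For the 6 other genes, the 30 differences in the 5 comparisons between groups ran from -0.20 to 0.14 on the log2 scale. Their 95% confidence intervals lay between -0.48 and 0.47, or 0.717-fold to 1.39-fold. A p that misses the threshold does not show that the levels were equal, and these bounds give the size of change the 3 arrays per group leave possible. The median size of the 7 differences was 0.08 in ALA against control, where that of all clusters was 0.11, and 0.05 in inhibitor against control, where that of all clusters was 0.11. Among clusters brighter than the median, where 6 of the 7 genes lie, the median size was 0.09 in each of these comparisons. The plot of signals by treatment and passage sets each group's 3 values beside its mean and SD, and the widest gaps between group means were 0.56 for Lpin3 and 0.21 for Dgat2.

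**Figure D1:**
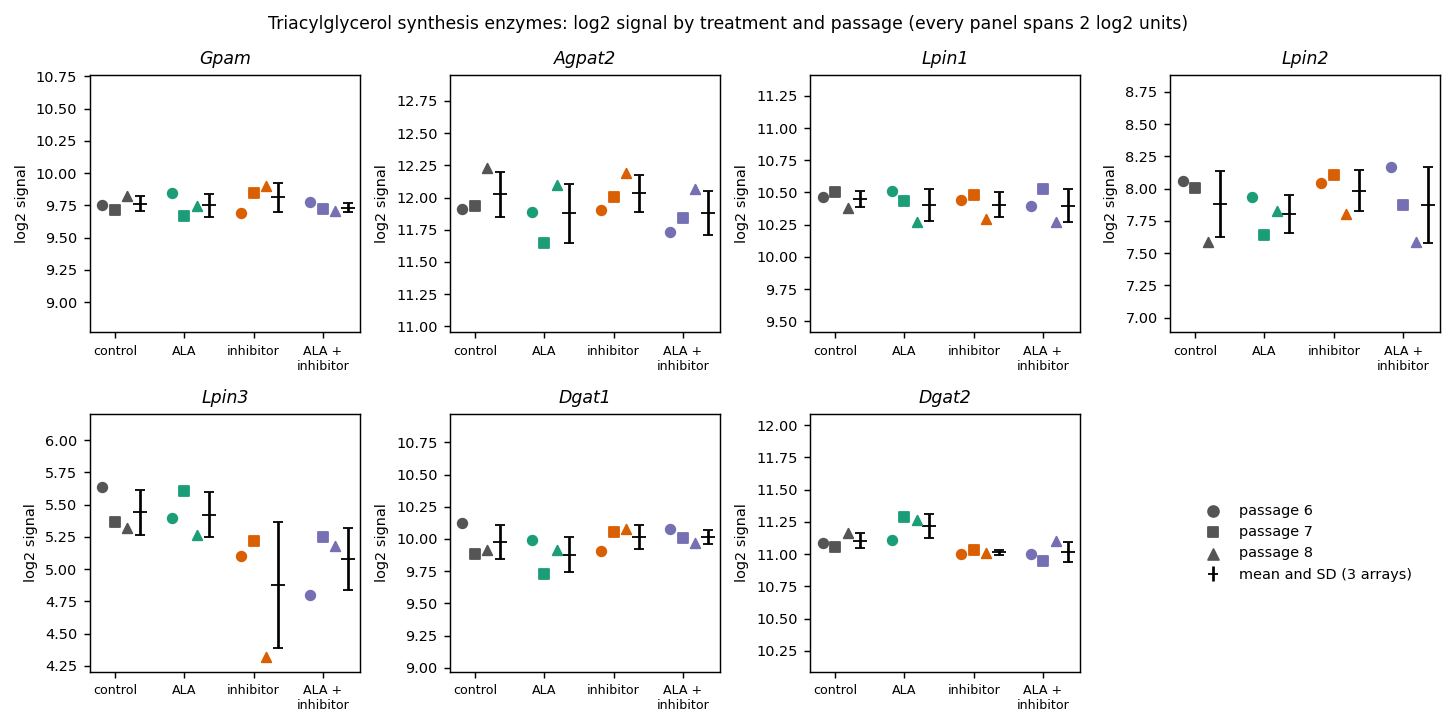
Log2 signal (vertical axis) of each of the 7 genes in the 4 treatment groups (horizontal axis), with a point for each array, shaped by passage, and a bar for the group's mean and SD (3 arrays). Lpin3, on the lowest scale, has its 6 inhibitor-treated arrays at or under 5.25 and the other 6 at or over 5.26, while group means of the other genes differ by 0.21 or less.

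Gpam encodes the mitochondrial glycerol-3-phosphate acyltransferase, which makes lysophosphatidic acid. Its log2 signal at passages 6, 7 and 8 was 9.75, 9.71 and 9.83 in control, 9.84, 9.67 and 9.74 with ALA, 9.69, 9.85 and 9.90 with the inhibitor, and 9.77, 9.72 and 9.70 with both. The 4 groups overlapped throughout, and all 12 values fell within a narrow band. Group means ± SD (n = 3) were 9.76 ± 0.06, 9.75 ± 0.09, 9.81 ± 0.11 and 9.73 ± 0.04 in the same order. ALA differed from control by -0.01, the inhibitor from control by 0.05, and both agents from ALA by -0.02. Gpam was among the steadiest transcripts on the array, since 3.45% of clusters had a smaller spread within groups (SD 0.08).

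Agpat2 encodes the acyltransferase that turns lysophosphatidic acid into phosphatidic acid. Its signal was 11.91, 11.94 and 12.23 in control, 11.89, 11.65 and 12.10 with ALA, 11.91, 12.00 and 12.19 with the inhibitor, and 11.74, 11.84 and 12.06 with both. In each of the 4 groups the passage 8 array was the highest, and the treatment groups overlapped. Group means were 12.03 ± 0.17, 11.88 ± 0.23, 12.03 ± 0.14 and 11.88 ± 0.17 (SD, n = 3). The groups with ALA averaged 0.15 below those without it (difference -0.15, unadjusted p = 0.177 in limma's test). Within passages 6, 7 and 8 the difference was -0.10, -0.22 and -0.13. The model behind that p holds no passage term, so the differences between passages count as spread in it. Without the ALA array of passage 7 the difference was -0.09, in groups that then no longer held the same passages. The inhibitor differed from control by 0.01. Agpat2 was brighter than 99.3% of clusters, which places it near the top of the signal range.

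Lipins remove the phosphate from phosphatidic acid, and lipin 1 also acts as a nuclear co-regulator. Lpin1 read 10.47, 10.50 and 10.38 in control, 10.51, 10.43 and 10.27 with ALA, 10.44, 10.48 and 10.29 with the inhibitor, and 10.40, 10.52 and 10.27 with both. The lowest value of every group was again that of passage 8, and the treatment groups overlapped. The inhibitor differed from control by -0.04 and both agents from ALA by -0.01. Lpin2 read 8.06, 8.00 and 7.59 in control, 7.93, 7.64 and 7.83 with ALA, 8.04, 8.10 and 7.80 with the inhibitor, and 8.17, 7.87 and 7.58 with both. Passage 8 was lowest in 3 of the 4 groups, the exception being ALA, where the array that stood apart was lowest. Its treatment differences were -0.08 for ALA against control, 0.10 for inhibitor against control and 0.07 for both agents against ALA, with a within-group SD of 0.22.

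Lpin3 gave the widest treatment differences of the 7 genes. Its log2 signal was 5.64, 5.36 and 5.32 in control, 5.40, 5.61 and 5.26 with ALA, 5.10, 5.22 and 4.31 with the inhibitor, and 4.80, 5.25 and 5.18 with both. All 6 arrays with the inhibitor lay below all 6 without it, but the nearest values, 5.25 and 5.26, were almost equal and the inhibitor array of passage 8 was far below the rest. Those nearest arrays, both agents at passage 7 and ALA at passage 8, had medians over all clusters of 6.18 and 6.21. With each array's median subtracted, the order of that pair turns and the 6 arrays no longer lie wholly below the other 6. Group means ± SD (n = 3) ran from 5.44 ± 0.17 in control and 5.42 ± 0.17 with ALA to 5.08 ± 0.24 with both and 4.88 ± 0.49 with the inhibitor, and no pair of neighbours in that order passed limma's test. Over 6 against 6 arrays the difference was -0.45 (SE 0.15, 95% interval -0.78 to -0.12), or 0.730-fold. The unadjusted p was 0.0109 and the adjusted p 0.496 in limma's test. The differences within passages 6, 7 and 8 were -0.57, -0.25 and -0.54. Groups failed to overlap for 1 of the 7 genes here, Lpin3, against 0.561% of all clusters, or 0.33% in the lower direction.

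Inhibitor against control gave -0.56 for Lpin3 (SE 0.215, 95% interval -1.03 to -0.10, unadjusted p = 0.0219, adjusted p = 0.998 in limma's test). Without the inhibitor array of passage 8 that difference was -0.28 (unadjusted p = 0.125, adjusted p = 1.00 in limma's test). Both agents against ALA gave -0.35 (SE 0.215, 95% interval -0.81 to 0.12, adjusted p = 0.721 in limma's test). Without the array of both agents at passage 6 it was -0.21. With ALA alone the difference from control was -0.02. The interaction of the agents for Lpin3 was 0.22, the largest among the 7 genes, whose smallest interaction p in limma's test was 0.452, for Dgat2. Lpin3 was also the dimmest of the genes relative to the array, brighter than 36.5% of clusters, and its within-group SD of 0.30 exceeded that of 83.8% of clusters.

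Markers of several cell types also lay lower in the arrays with the inhibitor. Over all clusters 53.3% were lower by value with the averaged inhibitor, and 5.18% were lower at an unadjusted p under 0.05 in limma's test. Among the 11052 clusters brighter than the median, 4751 were lower by value and 6301 higher, and 370 were lower at that p. Of 5 measured preadipocyte and fibroblast markers, 5 were lower, 2 of them at that p. Their summed signal, as log2, was 13.12 to 13.39 in control, 13.18 to 13.41 with ALA, 12.88 to 13.26 with the inhibitor and 12.95 to 13.26 with both. Cd34 was the dimmest of them, with a mean log2 signal of 5.32, and the other 4 were above the median of all clusters. Of 10 adipocyte markers, 9 were lower with the inhibitor, 2 of them at that p. Lower too were 4 of 4 skeletal muscle markers (2 at that p), 3 of 4 endothelial markers (1 at that p) and 3 of 3 macrophage markers (0 at that p). Of these only 1, for skeletal muscle, was above the median of all clusters. Their mean signals in control, ALA, inhibitor and both were 5.42, 5.63, 5.37 and 5.33 for muscle. They were 4.27, 4.01, 3.98 and 4.06 for endothelium, and 5.10, 5.08, 4.95 and 5.08 for macrophages. For these last 2 types the means with both agents were thus not below those with ALA. The part of the marker differences in the Lpin3 difference was not tested.

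Dgat1 and Dgat2 encode unrelated enzymes of the endoplasmic reticulum that catalyse the same last step, the acylation of diacylglycerol. Dgat1 read 10.12, 9.88 and 9.92 in control, 9.99, 9.73 and 9.92 with ALA, 9.91, 10.05 and 10.08 with the inhibitor, and 10.08, 10.00 and 9.97 with both. Its groups overlapped in inhibitor against control, and the ALA array of passage 7 was the lowest of the 12. Both agents differed from ALA by 0.14 (unadjusted p = 0.26 in limma's test), which was 0.06 without that array. The inhibitor averaged over both ALA states gave 0.09.

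Dgat2, the isoform linked to newly made fatty acids, had the largest share of its variance between treatments among the 7 genes. Its spread within groups was also the smallest of the 7 (SD 0.07), and 1.89% of clusters had a smaller one. A large share and groups without overlap can thus go with small differences here. It read 11.08, 11.06 and 11.17 in control, 11.11, 11.28 and 11.26 with ALA, 11.00, 11.03 and 11.01 with the inhibitor, and 11.00, 10.95 and 11.10 with both. All 3 inhibitor arrays lay below all 3 controls, and all 3 arrays with both agents lay below all 3 with ALA, by small margins. Group means were 11.10 ± 0.06, 11.22 ± 0.09, 11.01 ± 0.02 and 11.02 ± 0.08 (SD, n = 3) in the same order. Both agents against ALA gave -0.20 (SE 0.10, 95% interval -0.42 to 0.02), or 0.870-fold, with an unadjusted p of 0.0701 and an adjusted p of 0.690 in limma's test. Without the ALA array of passage 7 it was -0.17. Inhibitor against control gave -0.09, and the inhibitor averaged over both ALA states gave -0.15 (SE 0.07, unadjusted p = 0.0650, adjusted p = 0.587 in limma's test). With passage as a block, limma's test gave that average an unadjusted p of 0.0481 (adjusted p = 0.387). Both agents against ALA then had an unadjusted p of 0.0522 (adjusted p = 0.475). Over all other settings run, the unadjusted p of the average in limma's test ranged from 0.0145 to 0.221. ALA against control gave 0.12 (SE 0.10, unadjusted p = 0.275 in limma's test), and the 3 ALA values overlapped the controls.

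Lpin3 and Dgat2 were thus lower without overlap in both inhibitor comparisons, which use different arrays of the same 3 passages. In inhibitor against control 2 of 7 genes did not overlap, each lower, against 10.8% of all clusters (4.97% lower). In both agents against ALA 2 of 7 were lower without overlap, against 11.6% of clusters (6.85% lower). Being lower without overlap in both comparisons held for 2 of 7 genes and for 0.651% of all clusters. These counts are of the deposited signals. At passages 6, 7 and 8 the array medians were 6.22, 6.23 and 6.19 in control, and 6.18, 6.17 and 6.14 with the inhibitor. With each array's median subtracted, Dgat2 overlaps in inhibitor against control and Lpin3 overlaps in both agents against ALA. Neither gene is then lower without overlap in both comparisons, though each remains so in the other 1. In ALA against control groups overlapped for all 7 genes, where 6.77% of clusters did not overlap. In both agents against control 1 of 7, Lpin3, did not overlap, against 10.3% of clusters (5.45% lower). Its difference there was -0.36, with -0.84, -0.11 and -0.14 within passages 6, 7 and 8, and -0.13 without passage 6. In both agents against the inhibitor the groups overlapped for all 7 genes, where 9.73% of clusters did not overlap. The plot of differences places every interval of the 6 genes other than Lpin3 across 0.

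**Figure D2:**
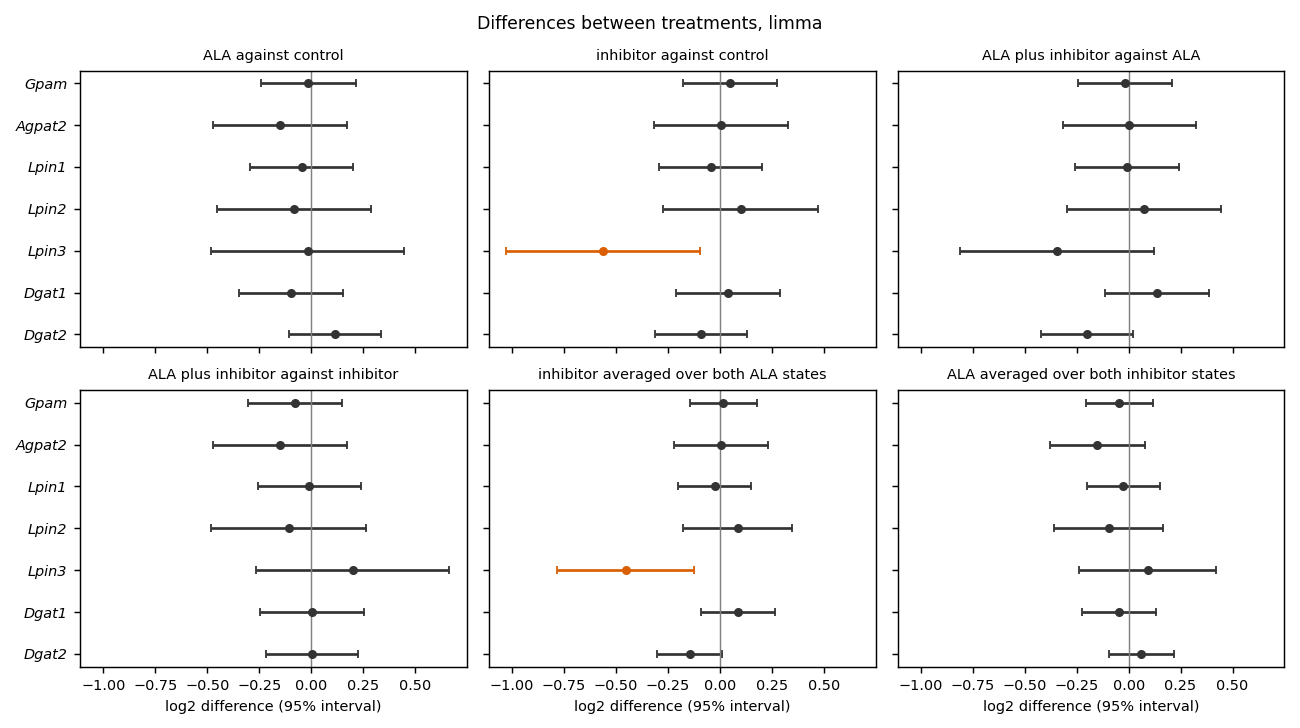
Difference in log2 signal (horizontal axis) with its 95% confidence interval from limma for each of the 7 genes in the treatment comparisons. Only the Lpin3 intervals for the inhibitor against control (-1.03 to -0.10) and for the averaged inhibitor (-0.78 to -0.12) leave out 0, and neither passed adjustment over all clusters.

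Passage number separated some of the genes more clearly than treatment did. Agpat2 averaged 11.86 ± 0.08 at passage 6, 11.86 ± 0.15 at passage 7 and 12.14 ± 0.08 at passage 8 (SD, n = 4), and its 4 passage 8 arrays, 12.06 or higher, lay above the other 8. Such an order, passage 8 above all the rest, held for 3.86% of clusters. Passage 8 against passage 6, with treatment in the model, gave 0.28 (SE 0.085, 95% interval 0.09 to 0.47, unadjusted p = 0.0076, adjusted p = 0.144 in limma's test). With a prior that follows signal and is robust to outlying clusters, the adjusted p in limma's test was 0.0032. That setting alone, of those run, made a call.

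Lpin1 lay the other way, at 10.46 ± 0.05, 10.49 ± 0.04 and 10.30 ± 0.05 (SD, n = 4), with its 4 passage 8 arrays, 10.38 or lower, below the other 8. In all, 1.54% of clusters lay below in this way. Its difference of passage 8 from passage 6 was -0.15 (SE 0.08, adjusted p = 0.402 in limma's test). Lpin2 averaged 8.05 ± 0.10, 7.91 ± 0.20 and 7.70 ± 0.13, and its passage 8 arrays lay below those of passage 6, as in 5.35% of clusters. In all, 3 of the 7 genes, Agpat2, Lpin1 and Lpin2, did not overlap between passages 8 and 6, against 12.5% of clusters. The Lpin2 difference was -0.35 (SE 0.11, adjusted p = 0.175 in limma's test). None of the 7 genes was called in passage 8 against passage 6, where 1.91% of clusters were, and none in passage 7 against passage 6, where 0% were. At an unadjusted p under 0.05 in limma's test, passage 8 against passage 6 gave 3237 clusters (14.6%) and 2 of the 7 genes, Agpat2 and Lpin2. Under 0.01 it gave 1316 clusters (5.95%) and 1 of the 7, Agpat2. At an unadjusted p under 0.05 passage 7 against passage 6 gave 2054 clusters (9.29%) and 0 of the 7 genes, the smallest p among them being 0.226 in limma's test. The 4 arrays of a passage are its 4 treatments, and the labels name no repeat of any passage. The SE and p-values of the passage comparisons thus measure spread among arrays that share a passage, not between repeats of a passage. What else differed between the cultures of the 3 passages is not given in the labels, so passage and any such difference cannot be told apart.

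**Figure D3:**
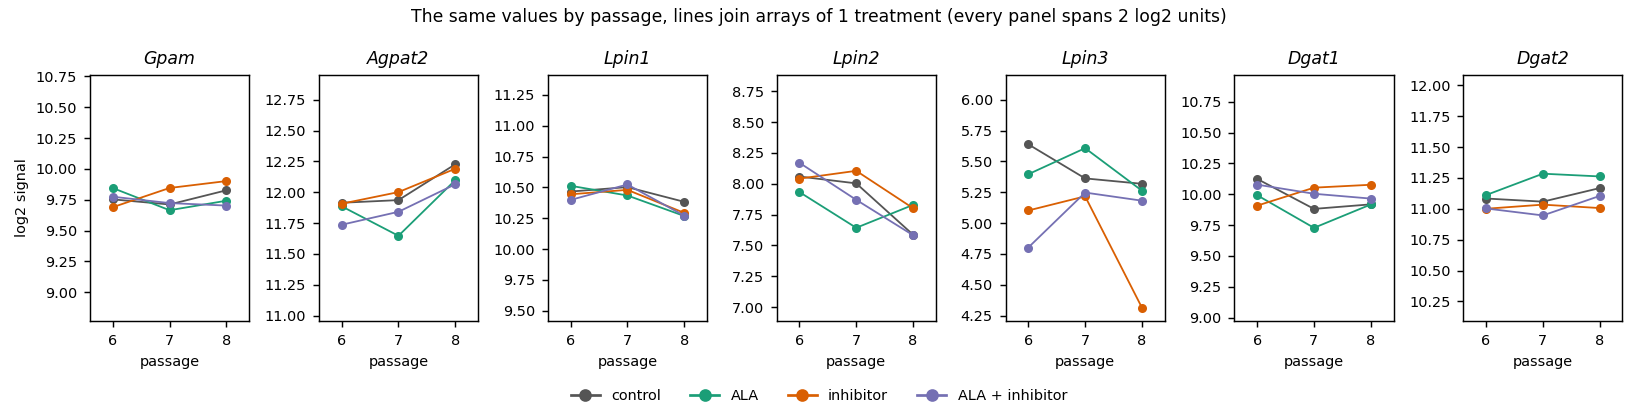
Log2 signal (vertical axis) of the 7 genes by passage 6, 7 and 8 (horizontal axis), with a line for each treatment. Agpat2 is highest and Lpin1 lowest at passage 8 in all 4 treatments, with passage 8 means of 12.14 and 10.30.

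The division of each gene's variance over the 12 arrays shows the same order. Passage held 79.1% of the variance of Lpin1, 66.5% of that of Agpat2 and 55.2% of that of Lpin2, where its 2 of 11 degrees of freedom alone would hold 18.2%. Treatment held 68.9% of the variance of Dgat2 and 48.5% of that of Lpin3, where its 3 of 11 degrees of freedom would hold 27.3%. The shares were not computed over all clusters, so how common such shares are on the array is not known. Gpam and Dgat1 had most of theirs in neither, with 72.1% and 54.1% left over. One test over all 4 treatments, limma's moderated F test, gave an adjusted p of 0.941 for both Lpin3 and Dgat2, the lowest of the 7, with 0 of 7 genes and 0% of clusters called. Over the 3 passages limma's moderated F test gave an adjusted p of 0.162 for Agpat2, 0.244 for Lpin2 and 0.339 for Lpin1, with 0 of 7 called against 1.24% of clusters. At an unadjusted p under 0.05 the F test over passages gave 3926 clusters (17.8%), Agpat2 and Lpin2 among them. That over treatments gave 1133 clusters (5.13%), and the smallest such p of the 7 genes was 0.0576, for Lpin3.

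Correlations among the genes had both signs. Of their 21 pairs, 10 had a positive and 11 a negative Pearson r over the 12 arrays, with a median of -0.10. The lowest was -0.64, between Dgat1 and Dgat2, and the highest 0.59, between Gpam and Dgat1. Agpat2 and Lpin1 had r = -0.55 over all arrays, and -0.71 after each treatment's mean was removed. These are descriptions over 12 arrays that share passages, treatments and 1 array that stood apart.

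Other genes whose pattern over the 12 arrays was most like each member were sought among 10045 named genes brighter than the median cluster. Lpin1 was most like Klf15 (r = 0.90), a Krüppel-like transcription factor of adipocytes, then Ulk2 (0.88) and Pfkm (0.88), the muscle isoform of phosphofructokinase. Agpat2 was most like Hnrnpu (0.96), an RNA-binding protein, and the predicted genes Gm14288 (0.95) and Gm14327 (0.95). Lpin2 was most like Rap1gds1 (0.91), Mkln1 (0.89) and Cdk13 (0.88), a cyclin-dependent kinase of transcription. Lpin3 was most like Ctdp1 (0.90), a phosphatase of RNA polymerase, Crybg2 (0.88) and Gm7030 (0.87). By ranks (Spearman) the correlation of Gm7030 was 0.59, the lowest among the genes named here. Dgat2 was most like 2010003K11Rik (0.98), Samd14 (0.95) and Slc36a2 (0.93), an amino acid transporter. Dgat1 was most like Ppp1r7 (0.94), Rev3l (0.92) and Cep85l (0.92). Gpam was most like Fam120c (0.91), Wapl (0.87), a cohesin release factor, and Polr2d (0.86), a subunit of RNA polymerase. Each of the 7 thus had genes with r of 0.86 or more, a level read over 12 arrays and the highest of many. None had another of the 7 among its nearest 3, though Lpin3 itself was too dim to be among the genes searched.

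A list of 34 further genes around the pathway, of which 32 were measured, was set beside the enzymes. It held other acyltransferases and phosphatases, suppliers of glycerol-3-phosphate, endoplasmic reticulum partners, phospholipid branches and transcription factors. None of the 32 was called in a treatment comparison, and the plot of the list by role shows differences of either sign. By value, 13 of 32 were lower in ALA against control, where 47.8% of all clusters were, 20 in inhibitor against control (50.8%) and 19 in both agents against ALA (53.4%). In both agents against the inhibitor 20 were lower (51.9% of all clusters), in both agents against control 22 (51.5%) and for the averaged inhibitor 19 (53.3%). Of the 11052 clusters brighter than the median, 5947 were lower in ALA against control and 4772 in inhibitor against control. There, 4925 were lower in both agents against ALA, 6263 in both against the inhibitor and 5255 in both against control. For the averaged inhibitor 4751 of these brighter clusters were lower. At an unadjusted p under 0.05 in limma's test, ALA against control gave 0 of 32, where 3.41% of clusters had such a p, and inhibitor against control gave 1, Cebpa (-0.26), where 4.32% did. Both agents against ALA gave 2, Bscl2 and Cebpa, both lower, where 7.27% of clusters had such a p, and both agents against control gave 3, all lower, where 4.28% did. Both agents against the inhibitor gave 1, Mogat2, a monoacylglycerol acyltransferase (difference 0.39), where 3.56% of clusters had such a p. The averaged inhibitor gave 4 of 32, all lower, where 5.18% of clusters were lower at that p. Among the 11052 brighter clusters 370 were lower at that p.

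Those 4 genes were Bscl2, Cebpa, Agpat3 and Gpat3. Bscl2 encodes seipin, which acts where lipid droplets form, and read 9.00, 9.09 and 8.59 in control, 9.18, 9.27 and 8.71 with ALA, 8.62, 8.42 and 8.57 with the inhibitor, and 8.36, 8.50 and 8.67 with both. At passage 8 its 4 values were close together, while at passages 6 and 7 the inhibitor arrays were the lower ones. Its averaged inhibitor difference was -0.45, and both agents against ALA gave -0.55 (SE 0.17, adjusted p = 0.653 in limma's test). Cebpa, a transcription factor of adipocyte differentiation, read 10.03, 10.04 and 10.04 in control, 10.07, 10.09 and 10.01 with ALA, 9.73, 9.71 and 9.90 with the inhibitor, and 9.79, 9.81 and 9.83 with both. All 6 of its inhibitor arrays lay below the other 6, with a difference of -0.25 (adjusted p = 0.496 in limma's test). Groups failed to overlap in this way for 1 of the 32 genes, Cebpa, against 0.561% of all clusters (0.33% lower). Cebpa is also among the adipocyte markers counted above as lower at an unadjusted p under 0.05, so these are not separate observations. Agpat3, an acyltransferase of the same family as Agpat2, differed by -0.21 and Gpat3, a glycerol-3-phosphate acyltransferase, by -0.20.

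Gpd1, which supplies glycerol-3-phosphate, was the 1 gene of the 32 that passed in passage 8 against passage 6, where 1.91% of all clusters did. It read 12.31, 12.38 and 12.67 in control, 12.38, 12.56 and 12.77 with ALA, 12.14, 12.14 and 12.50 with the inhibitor, and 12.23, 12.20 and 12.54 with both. Within each treatment the passage 8 array was the highest. The difference was 0.36 (SE 0.08, adjusted p = 0.0492 in limma's test). The call was lost when any 1 array other than ALA passage 7 was left out, with adjusted p values up to 0.172 in limma's test, and the difference then stayed between 0.33 and 0.38. It was also lost with arrays centred on their medians (adjusted p = 0.0513), after quantile normalization (adjusted p = 0.0684) and with passage alone in the model (adjusted p = 0.128), all in limma's test. Mogat1, a monoacylglycerol acyltransferase, gave 0.43 (adjusted p = 0.0837) and Fitm2, which binds fat at forming droplets, 0.35 (adjusted p = 0.112) in limma's test for the same comparison.

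**Figure D4:**
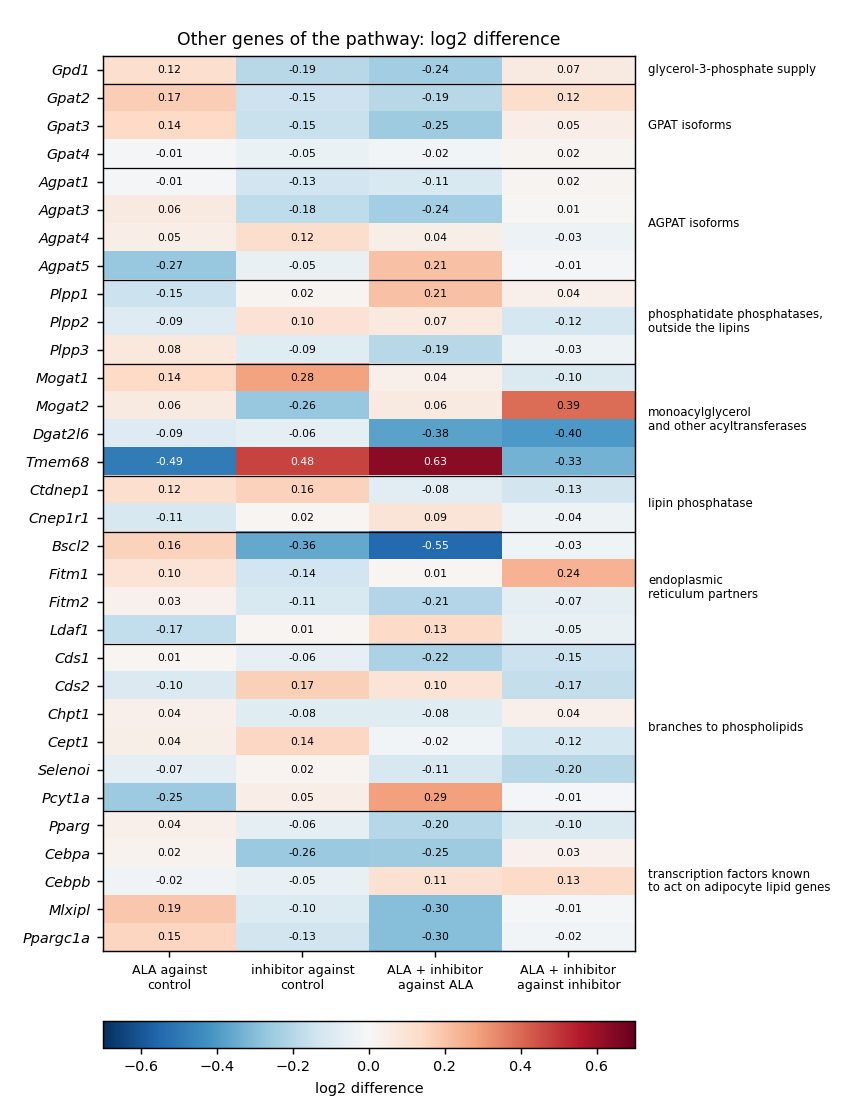
Difference in log2 signal (colour) for the measured genes of the pathway list, in rows grouped by role, in each comparison (columns). Differences of both signs occur within most roles. The darkest blue cell is that of Bscl2 in ALA plus inhibitor against ALA (-0.55), and the darkest red that of Tmem68 (0.63), whose differences within passages 6, 7 and 8 were -0.06, 2.02 and -0.06, with the ALA array that stood apart at passage 7.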

How the data were processed

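Transcript levels of 12 cultures were measured on whole-transcript arrays. The authors deposited log2 signals, 1 value for each array and transcript cluster. Per the submitters' processing notes they used RMA, a method of background correction, normalization between arrays and probe summary that draws dim signals toward a floor. Neither the RMA software nor the library file is given in the sources used here. Arrays give no read depth, and their number limits the precision. Symbols came from the array annotation.

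Groups followed the labelled treatments. All 22104 clusters entered 1 linear model with a coefficient per treatment, fitted in R 4.3.3 with limma 3.58.1 (lmFit and eBayes, 8 residual and 4.66 prior degrees of freedom, two-sided, Benjamini-Hochberg over all clusters, called at adjusted p under 0.05). Passages were compared in a model with treatment and passage. P-values of the treatment comparisons measure the spread between cultures of 1 cell line. Those of the passage comparisons measure the spread left among arrays that share a passage, since no repeat of a passage is labelled. The code was tested on simulated data.

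All 7 genes are named in every comparison. From the pathway list, counts and up to 4 genes per comparison with the smallest p are named. For likeness, the 3 named genes with the highest Pearson r are given, among those above the median. Tmem68 in the plot of the list was named after its values were seen. The members and lists were chosen with earlier results of these data known.

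Each passage held an array of every treatment, so passage could also enter the model as a block. The main model left it out, so differences between passages count as spread in its treatment p-values. Arrays of the same passage were checked for deviating together. Every correlation of deviations from group means was over 0.1 for both agents against ALA (0.163, 0.163 and 0.235) and against control, where a replicate block left 0 calls as before. At passages 6, 7 and 8 the correlations were 0.01, 0.34 and 0.46 for ALA against control. They were 0.19, 0.08 and 0.36 for inhibitor against control, and 0.14, 0.09 and 0.27 for both agents against the inhibitor.

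Alternatives were a replicate block, array weights, another eBayes prior, only the arrays compared, median centring, quantile normalization, leaving out the dimmest 30% of clusters, passage alone, and leaving out each array or passage.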

Additional observations from a re-analysis of the deposited data

How the results depend on the processing

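The 3 arrays of each group leave wide intervals, Lpin3 lies in the dim range where RMA signals are noisy, and passage cannot be told apart from anything else that differed between the cultures. Over 23 alternatives, 48 differences gave 1025 values, of which 927 kept both sign and side of the threshold, 83 took the other sign, and 14, all of Gpd1, lost the call. Agpat2 in passage 8 against passage 6 was called under the trend and robust prior alone. The averaged inhibitor difference of Lpin3 stayed between -0.55 and -0.31, with adjusted p from 0.287 to 1.00 in limma's test, and -0.56 for inhibitor against control became -0.77 to -0.28. Dgat2 in both agents against ALA stayed between -0.26 and -0.13. With passage as a replicate block the averaged inhibitor gave 8 calls among all clusters where 0 stood without it, and 0 of the 7 genes were called (adjusted p = 0.287 for Lpin3 in limma's test). Leaving out 1 array or passage gave 0 to 1 calls, the 1 without both agents at passage 7. No other treatment comparison gained a call under the block. Passage 8 against passage 6 had 423 calls, which became 690 with array weights, 1183 with the trend and robust prior and 719 without the dimmest 30% of clusters. Its range was 140 (without the inhibitor array of passage 8) to 593 (without the ALA array of passage 7) when 1 array was left out. The test over all passages had 274 calls, which became 534, 1300 and 571 in the same order, and 8 to 258 when 1 array was left out. Passage 7 against passage 6 went from 0 to 10 calls with the trend and robust prior. With array weights the difference took the other sign in ALA against control (0.026 for Gpam), in both agents against ALA (-0.096 for Agpat2 and 0.031 for Lpin1), in both agents against the inhibitor (-0.0049 for Dgat1 and -0.014 for Dgat2), in the averaged inhibitor (-0.033 for Agpat2) and in averaged ALA (-0.0042 for Lpin3). With arrays centred on their medians the difference took the other sign in inhibitor against control (0.0046 for Lpin1), in both agents against ALA (0.015 for Gpam and 0.025 for Lpin1), in both agents against the inhibitor (-0.019 for Dgat1 and -0.018 for Dgat2) and in the averaged inhibitor (0.015 for Lpin1). After quantile normalization the difference took the other sign in ALA against control (0.010 for Gpam), in both agents against ALA (-0.00090 for Agpat2), in both agents against the inhibitor (0.019 for Lpin1) and in the averaged inhibitor (-0.0084 for Gpam). Leaving out 1 array or 1 passage turned the sign of further differences, over these ranges. For ALA against control they were -0.066 to 0.030 for Gpam, -0.099 to 0.023 for Lpin1, -0.24 to 0.058 for Lpin2 and -0.15 to 0.095 for Lpin3. For inhibitor against control they were -0.072 to 0.11 for Agpat2, -0.082 to 0.012 for Lpin1, -0.048 to 0.19 for Lpin2 and -0.029 to 0.17 for Dgat1. For both agents against ALA they were -0.060 to 0.030 for Gpam, -0.11 to 0.11 for Agpat2, -0.076 to 0.056 for Lpin1 and -0.075 to 0.23 for Lpin2. For both agents against the inhibitor they were -0.071 to 0.055 for Lpin1, -0.26 to 0.037 for Lpin2, -0.13 to 0.45 for Lpin3, -0.081 to 0.060 for Dgat1 and -0.043 to 0.050 for Dgat2. For the interaction they were -0.14 to 0.43 for Lpin3. For the averaged inhibitor they were -0.025 to 0.057 for Gpam, -0.057 to 0.061 for Agpat2 and -0.060 to 0.0055 for Lpin1. For averaged ALA they were -0.11 to 0.0018 for Gpam, -0.058 to 0.0074 for Lpin1, -0.17 to 0.0061 for Lpin2 and -0.067 to 0.27 for Lpin3. A mean over several clusters of a gene gave no other value, since each gene had 1 cluster. The cause of these changes was not tested.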
